A study of Homo sapiens with 6 samples.

Results

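The canonical Wnt pathway turns on the stability of beta-catenin. In the cytoplasm a destruction complex, built on the scaffolds APC and AXIN1, brings beta-catenin to the kinases CSNK1A1 and GSK3B, which phosphorylate it for breakdown by the proteasome. Beta-catenin that escapes enters the nucleus and binds the TCF/LEF factors TCF7, TCF7L1, TCF7L2 and LEF1, which otherwise hold target genes silent together with corepressors. In the colon epithelium this output maintains crypt stem cells, and loss of APC is the usual first step of colorectal cancer. The 9 genes described here are these 4 complex members, the beta-catenin gene CTNNB1 and the 4 TCF/LEF genes. They were chosen by gene symbol out of 22496 symbols listed in at least 1 library, with earlier results of these data known. All 9 were listed in all 6 libraries and passed the filter on low values.

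The cells are LoVo, an established line from a human colon adenocarcinoma that is known to carry truncating APC mutations and an intact CTNNB1. Poly-A RNA was sequenced from 3 libraries of the genotype labelled non-target (NT), the control, and 3 of the genotype labelled SHARPIN knockout (KO). The sources used here do not give whether the KO cells are 1 clone or whether replicates are separate cultures, so p-values measure only how far these libraries scatter, and that scatter may be technical. SHARPIN works beside HOIP and HOIL-1 in the ligase that builds linear ubiquitin chains, and the comparison asks how its loss changes gene expression.

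Levels are FPKM, fragments scaled by transcript length and library size, as the authors deposited them. The length scaling lets genes be set side by side only roughly. A value sums all forms of a gene and may mix fragments of genes that overlap. A rough estimate from the smallest steps between values put each library at 20900000 to 22600000 fragments, and the sum of FPKM was highest in KO replicate 3. SHARPIN transcript itself stood at 11.9, 13.9 and 12.9 FPKM in NT replicates 1, 2 and 3 and at 7.55, 11.9 and 18.0 FPKM in KO replicates 1, 2 and 3, so it does not check the labels. NT replicates 2 and 3 were nearly alike (r = 0.997 across genes), and both replicate 1 libraries stood apart on the second principal component, at 20.6 and 36.3 against -28.1 to -9.0 for the rest. Of 12 markers of colon epithelium 9 stood at 1 FPKM or more in every library. The other 3, VIL1, CDX1 and GPA33, stood below it only in KO libraries. In the limma test described below 5 of the 12 fell (VIL1, CDX1, CDH17, LGALS4 and GPA33), 2 rose (KRT19 and KRT20) and 5 did not pass. The summed level of the 12 was 4148 to 5290 FPKM in NT and 4837 to 9667 FPKM in KO. Most of it came from KRT8 (mean 2197 FPKM in NT and 3203 in KO) and KRT18 (2053 and 2936). Neither of these passed, and the sum says little about the other markers. All 9 immune markers and all 5 endothelial markers stayed below 1 FPKM throughout. The summed level of 8 fibroblast markers was 7.78 to 20.2 FPKM in NT and 0.234 to 0.812 FPKM in KO. LUM, the only fibroblast marker tested, stood at 5.03, 7.52 and 7.45 FPKM in NT replicates 1, 2 and 3. In KO it stood at 0.385 FPKM or less, and in NT replicates 2 and 3 it made up most of the sum. COL1A1 and COL1A2 stood at 6.60 and 6.12 FPKM in NT replicate 1 against 0.290 or less elsewhere. The part of these markers in the results below was not tested.

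TCF7 and LEF1 rose in the KO libraries and APC fell, while beta-catenin and the kinases did not pass the test. TCF7 went from 8.04 ± 1.19 to 18.5 ± 6.11 FPKM and LEF1 from 8.72 ± 0.965 to 16.3 ± 1.24 FPKM (mean ± SD, n = 3 per group). APC went from 3.27 ± 0.258 to 1.34 ± 0.662 FPKM. Thus 3 of 9 genes passed (limma, two-sided, Benjamini-Hochberg adjusted p below 0.05 over 13092 genes), 2 of them higher and 1 lower. Of all genes tested, 12.2% passed, 6.26% as higher and 5.93% as lower, so 12.2% is the share to hold against 3 of 9. The median log2 fold change was 0.11 over the 9 genes and 0.02 over all genes tested. With the replicate number as a block 25.3% of all genes passed, and again 3 of the 9, in the same directions. The count of 3 fell to 1 without NT replicate 2, NT replicate 3 or KO replicate 3. In those fits the count over all genes fell from 1597 to 958, 911 and 1235. The groups did not overlap in 5 of the 9 genes, against 32.1% of all genes tested. An exact permutation test of 3 libraries against 3 cannot give a p under 0.1, and it gave 0.1 for those 5 genes.

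**Figure D1:**
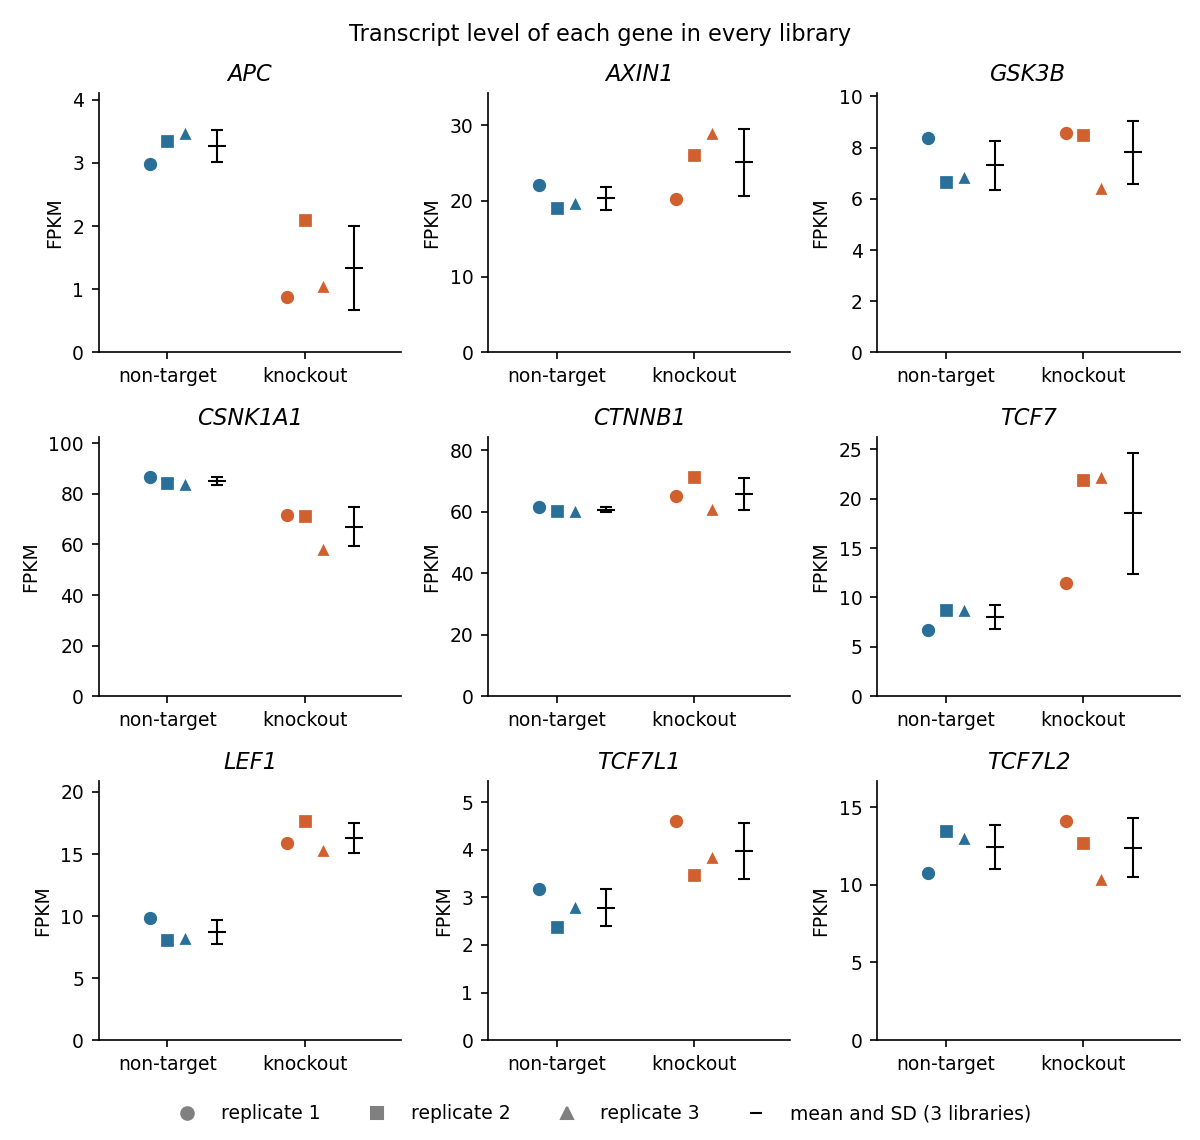
Level of each of the 9 genes in FPKM (linear axes from 0) in the 3 non-target (blue) and 3 knockout (orange) libraries, with symbols for the replicate number and a black bar for mean and SD. APC and CSNK1A1 lay lower and TCF7, LEF1 and TCF7L1 higher in all 3 knockout libraries than in any non-target library, and the other 4 genes overlapped.

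The DNA just before the start sites of TCF7 and APC is shown here because TCF7 is itself a known target of TCF/LEF factors, and because both genes start at more than 1 place, which a value per gene cannot separate. Each window holds the 250 bases before an annotated start in GENCODE on GRCh37, the build of the files, read on the gene's strand and outside the gene's annotated exons. Capitals mark any of the 4 forms of the TCF/LEF recognition element searched on both strands. These were CTTTGAT, the form CTTTGTT, the form CTTTGAA and the form CTTTGTA. Some of these forms are also bound by related HMG-box factors.
TCF7, upstream of the gene's 5′ end (chr5:133450122-133450371, plus strand): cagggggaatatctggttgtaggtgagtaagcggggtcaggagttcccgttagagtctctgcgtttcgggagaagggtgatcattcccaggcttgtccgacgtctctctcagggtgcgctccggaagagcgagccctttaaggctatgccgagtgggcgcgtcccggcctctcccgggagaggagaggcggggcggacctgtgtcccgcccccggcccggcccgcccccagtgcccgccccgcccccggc
TCF7, upstream of the internal start (chr5:133459059-133459308, plus strand): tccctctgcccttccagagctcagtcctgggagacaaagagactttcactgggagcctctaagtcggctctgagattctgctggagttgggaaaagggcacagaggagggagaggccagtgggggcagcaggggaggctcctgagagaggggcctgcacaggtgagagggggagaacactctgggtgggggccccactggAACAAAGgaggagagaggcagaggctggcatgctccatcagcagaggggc
APC, upstream of the gene's 5′ end (chr5:112042965-112043214, plus strand): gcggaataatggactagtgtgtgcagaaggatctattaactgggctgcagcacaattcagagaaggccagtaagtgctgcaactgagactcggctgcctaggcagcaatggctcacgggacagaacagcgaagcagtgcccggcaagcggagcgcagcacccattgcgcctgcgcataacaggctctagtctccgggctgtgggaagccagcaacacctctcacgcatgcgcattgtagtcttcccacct
APC, upstream of the internal start (chr5:112073332-112073581, plus strand): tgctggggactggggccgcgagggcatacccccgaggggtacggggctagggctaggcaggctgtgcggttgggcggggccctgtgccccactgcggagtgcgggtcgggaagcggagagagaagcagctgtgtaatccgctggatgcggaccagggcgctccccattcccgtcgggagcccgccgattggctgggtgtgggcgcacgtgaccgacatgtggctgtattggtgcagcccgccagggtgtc
A match was found in 1 of these 4 windows, AACAAAG (the reverse complement of CTTTGTT) starting 50 bases before the internal TCF7 start. None of the windows before the 5′ ends of 8 of the 9 genes, those examined here, held a match, and 10.8% of such windows of 20141 protein-coding genes did. A match in such a window is only a description of its letters, and no match says only that these letters are not within 250 bases. The internal TCF7 start is of interest because short TCF7 forms that lack the beta-catenin binding end are known, and the deposited value sums all forms.

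APC, the large scaffold that binds beta-catenin and axin (chromosome 5, 112043215 to 112181936), was the member that fell. Its level was 2.98, 3.35 and 3.47 FPKM in NT replicates 1, 2 and 3 and 0.873, 2.098 and 1.05 FPKM in KO replicates 1, 2 and 3. KO replicate 2 lay between the other KO libraries and the NT libraries, and the groups did not overlap. The KO mean was 0.410 times the NT mean, and the log2 fold change on the log2(FPKM + 1) scale, where the added 1 shrinks the change of a low gene like this, was -0.90 ± 0.21 (SE; limma, adjusted p = 0.0218). With a pseudocount of 0.1 in place of 1 it was -1.32. APC was a low transcript, at the 15.4 percentile of the genes tested by its mean over the 6 libraries. The call was lost without NT replicate 2 (limma, adjusted p = 0.0653), NT replicate 3 (0.0746) or KO replicate 3 (0.0852), and without both replicate 1 libraries (0.0580). The longest annotated APC transcript has 10920 bases at 40.5% GC, and 199 tested genes of similar length and GC had a median log2 fold change of -0.16 (quartiles -0.36 and 0.04). With the trend on GC and length removed, APC had a log2 fold change of -0.72 (limma, adjusted p = 0.0637).

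AXIN1, the second scaffold and the usual limiting part of the complex (chromosome 16, 337440 to 402723), did not pass. It stood at 22.1, 19.1 and 19.8 FPKM in NT replicates 1, 2 and 3 and at 20.3, 26.0 and 29.0 FPKM in KO replicates 1, 2 and 3. KO replicates 2 and 3 lay above every NT library, while KO replicate 1 lay within the NT range. The log2 fold change was 0.28 with a 95% interval from -0.12 to 0.68 (limma, adjusted p = 0.372). AXIN1 was thus 5.69 to 7.43 times as abundant as APC in the NT libraries and 12.4 to 27.6 times in the KO libraries (ratio of FPKM).

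Among the kinases, CSNK1A1 primes beta-catenin by the first phosphorylation and GSK3B carries on from it. CSNK1A1 (chromosome 5, 148872545 to 148931034) stood at 86.7, 84.3 and 83.9 FPKM in NT replicates 1, 2 and 3 and at 71.6, 71.4 and 58.1 FPKM in KO replicates 1, 2 and 3. Every KO library lay below every NT library, the nearest being KO replicate 1 at 71.6 FPKM and NT replicate 3 at 83.9 FPKM. The KO mean was 0.789 times the NT mean, with a log2 fold change of -0.34 (95% interval -0.70 to 0.01; limma, adjusted p = 0.215), so the difference did not pass. GSK3B (chromosome 3, 119540168 to 119813841) stood at 8.38, 6.66 and 6.87 FPKM in NT replicates 1, 2 and 3 and at 8.57, 8.49 and 6.40 FPKM in KO replicates 1, 2 and 3. Its groups overlapped, with KO replicate 1 the highest and KO replicate 3 the lowest of all 6 libraries, and the log2 fold change was 0.08 (95% interval -0.32 to 0.49; adjusted p = 0.822).

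CTNNB1, which encodes beta-catenin (chromosome 3, 41236232 to 41301587), was close to level. It stood at 61.5, 60.3 and 60.1 FPKM in NT replicates 1, 2 and 3 and at 65.0, 71.3 and 60.8 FPKM in KO replicates 1, 2 and 3. KO replicate 3 lay inside the NT range and the other KO libraries above it. The log2 fold change was 0.11 (95% interval -0.23 to 0.45; limma, adjusted p = 0.704). The pathway acts on the protein, which RNA does not measure. CTNNB1 transcript was 18.7 ± 1.77 times as abundant as APC in NT and 55.5 ± 20.4 times in KO.

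LEF1 (chromosome 4, 108968701 to 109090112), mostly absent from normal colon and known to be switched on in colorectal cancer, had the smallest p of the 9 genes. It stood at 9.84, 8.09 and 8.25 FPKM in NT replicates 1, 2 and 3 and at 15.9, 17.7 and 15.3 FPKM in KO replicates 1, 2 and 3. The groups lay well apart, and NT replicate 1 was the highest of the controls. The KO mean was 1.87 times the NT mean, with a log2 fold change of 0.83 ± 0.16 (SE; 95% interval 0.47 to 1.19; limma, adjusted p = 0.00801). The call was lost without NT replicate 2 (adjusted p = 0.0594) or NT replicate 3 (0.0589), at log2 fold changes of 0.79 and 0.80. The antisense gene LEF1-AS1 overlaps LEF1 exons, and the sources used here do not give whether the counting used strand, so fragments of the pair may be mixed. LEF1-AS1 stood at 1.60 ± 0.376 FPKM in NT and 2.96 ± 0.989 FPKM in KO (mean ± SD, n = 3; adjusted p = 0.138), well below LEF1.

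TCF7, which encodes TCF1 (chromosome 5, 133450372 to 133487556), had the largest difference of the 9 genes on the log2(FPKM + 1) scale, though not with a pseudocount of 0.1, where APC differed more. It stood at 6.66, 8.72 and 8.74 FPKM in NT replicates 1, 2 and 3 and at 11.5, 21.9 and 22.2 FPKM in KO replicates 1, 2 and 3. All KO libraries lay above all NT libraries, and the replicate 1 library was the lowest of each group. The KO mean was 2.30 times the NT mean, with a log2 fold change of 1.06 ± 0.25 (SE; 95% interval 0.50 to 1.63; limma, adjusted p = 0.0231). Without both replicate 1 libraries it was 1.24 (adjusted p = 0.00168). The call was lost without NT replicate 1 (0.0902), KO replicate 2 (0.105) or KO replicate 3 (0.0947). SKP1, a gene of the ubiquitin ligase that acts on beta-catenin, overlaps TCF7 exons on the opposite strand. It was far more abundant, at 77.4 ± 3.03 FPKM in NT and 90.9 ± 14.7 FPKM in KO (mean ± SD, n = 3; adjusted p = 0.474). Its part in the TCF7 value was not tested.

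TCF7L1, known as the most repressive member of the family (chromosome 2, 85360515 to 85537510), was the lowest of the 4 factors. It stood at 3.17, 2.39 and 2.80 FPKM in NT replicates 1, 2 and 3 and at 4.62, 3.47 and 3.85 FPKM in KO replicates 1, 2 and 3. The groups did not overlap, but the gap from 3.17 to 3.47 FPKM was small, and the log2 fold change of 0.39 (95% interval -0.00 to 0.79; limma, adjusted p = 0.201) did not pass. TCF7L2, the main TCF of normal intestinal epithelium (chromosome 10, 114710006 to 114927437), stood at 10.8, 13.4 and 13.01 FPKM in NT replicates 1, 2 and 3. It stood at 14.1, 12.7 and 10.4 FPKM in KO replicates 1, 2 and 3. The KO libraries lay on both sides of the NT range, with a log2 fold change of -0.01 (95% interval -0.40 to 0.39; adjusted p = 0.988).

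**Figure D2:**
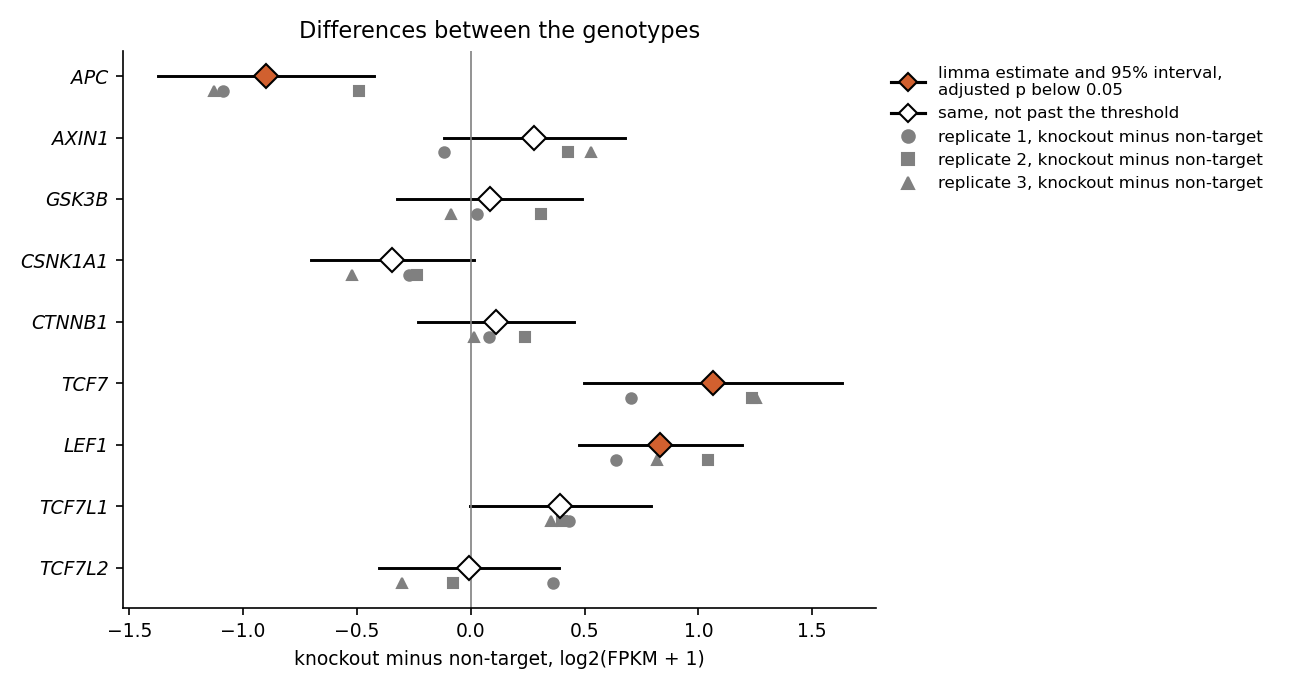
Difference between knockout and non-target on the log2(FPKM + 1) scale for each gene. Diamonds are limma estimates with 95% intervals, filled where the adjusted p was below 0.05, and grey symbols are the differences within each replicate number. APC (-0.90), LEF1 (0.83) and TCF7 (1.06) are filled, and their 3 within-replicate differences share 1 sign each. The same holds for CSNK1A1, TCF7L1 and CTNNB1, which did not pass.

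The TCF/LEF family was also described by its make-up. Its summed level was 30.5, 32.6 and 32.8 FPKM in NT replicates 1, 2 and 3 and 46.1, 55.7 and 51.8 FPKM in KO replicates 1, 2 and 3. TCF7L2 made up 35.4%, 41.2% and 39.7% of the sum in NT replicates 1, 2 and 3 and 30.7%, 22.8% and 20.0% in KO replicates 1, 2 and 3. It was the first of the 4 in every NT library. In KO replicates 2 and 3 TCF7 was first, at 39.3% and 42.9%, and in KO replicate 1 LEF1 was first, at 34.4%. The share of TCF7 in KO replicate 1, 24.9%, lay within the NT range of 21.9% to 26.7%, so the groups overlapped. The share of LEF1 also overlapped between groups, at 24.8% to 32.3% in NT and 29.6% to 34.4% in KO. LEF1 stood at 0.602 to 0.912 times TCF7L2 in NT and at 1.12 to 1.48 times in KO. TCF7 stood at 0.618 to 0.672 times TCF7L2 in NT and at 0.811 to 2.14 times in KO. Both ratios were higher in every KO library, and no test was made of them because the pairs were chosen after their values were seen.

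Across 19 or 20 alternative settings of the test, which scaled, filtered or left out libraries in other ways, the sign of the 3 changed genes held in each, but the calls did not. LEF1 passed in 17 of 20 settings (log2 fold change 0.77 to 0.99), TCF7 in 15 of 20 (0.91 to 1.36) and APC in 11 of 19 (-1.32 to -0.61). AXIN1, CSNK1A1 and TCF7L1 passed in 1 setting each, the one that weights libraries by their estimated quality. CTNNB1, GSK3B and TCF7L2 passed in none of 20.

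**Figure D3:**
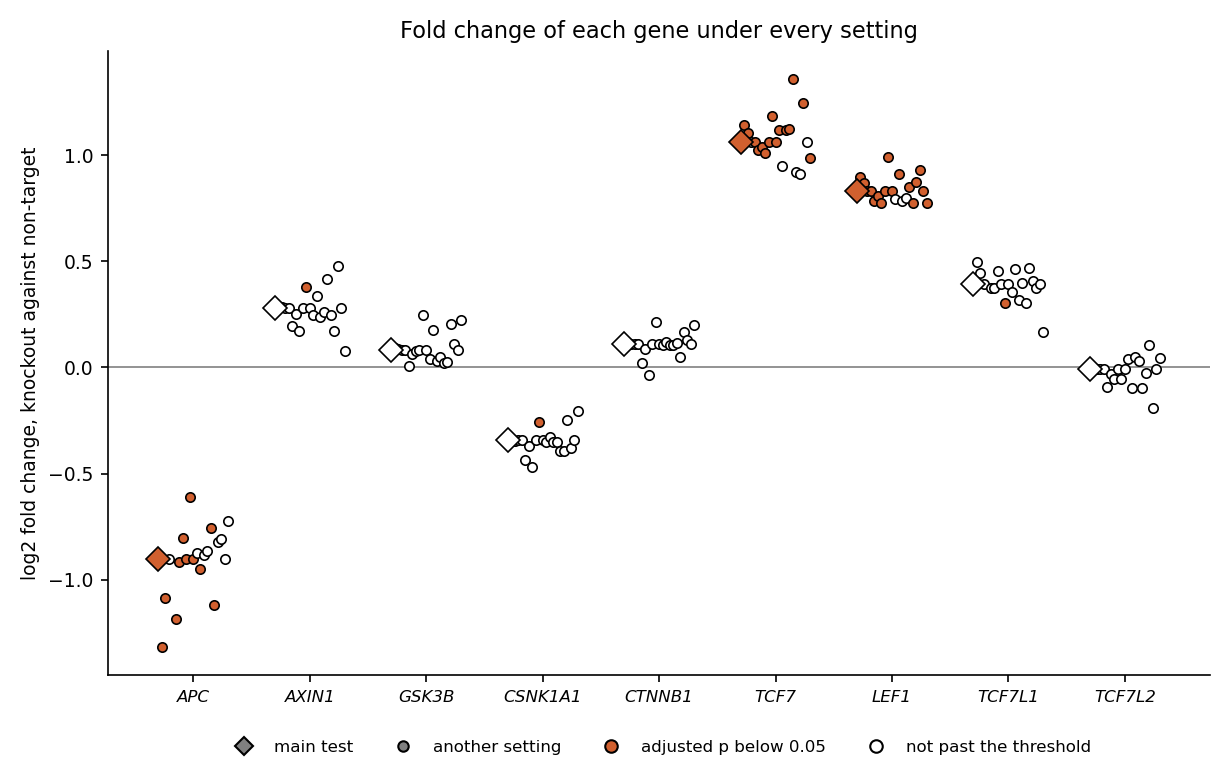
Log2 fold change of each gene, knockout against non-target, in the main test (diamonds) and in each of 19 or 20 other settings (circles), filled where the adjusted p was below 0.05. TCF7 (0.91 to 1.36), LEF1 (0.77 to 0.99) and APC (-1.32 to -0.61) keep their side of 0 in every setting, and TCF7L2 (-0.19 to 0.11) lies on both sides.

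**Figure D4:**
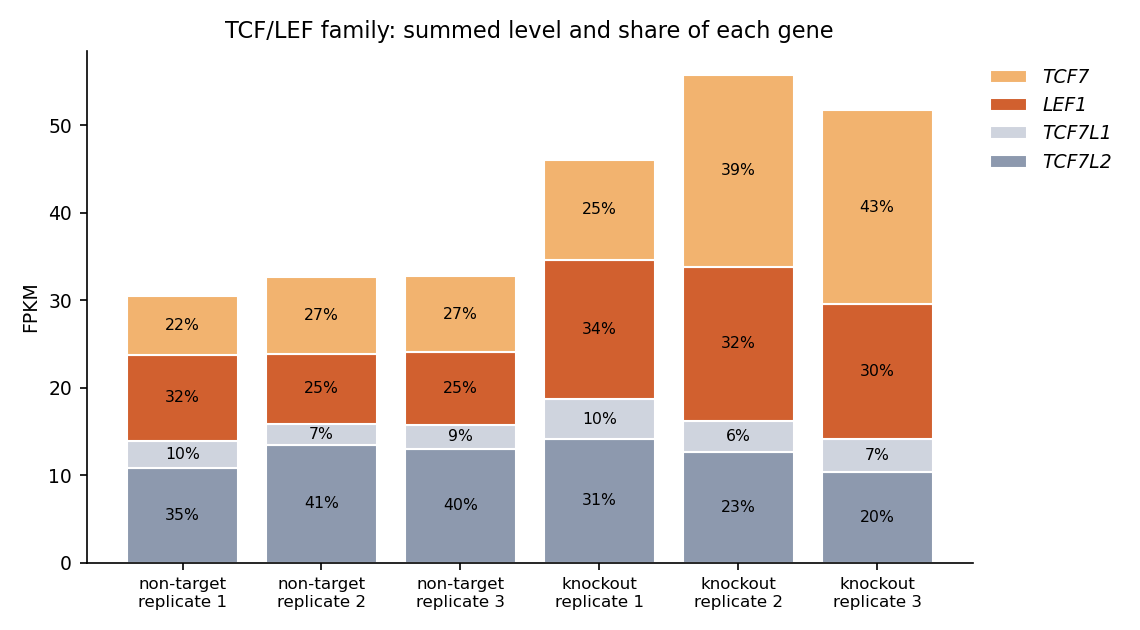
Summed FPKM of the 4 TCF/LEF genes in each library (stacked bars from 0), with the share of each gene printed in its segment. The bars reach 30.5 to 32.8 FPKM in non-target and 46.1 to 55.7 FPKM in knockout libraries, and the TCF7L2 segment holds 35.4% to 41.2% of the first and 20.0% to 30.7% of the second.

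By level, the order in NT was CSNK1A1, CTNNB1, AXIN1, TCF7L2, LEF1, TCF7, GSK3B, APC and TCF7L1. Neighbours in that order were separated in all libraries except LEF1 and TCF7, TCF7 and GSK3B, and APC and TCF7L1, whose ranges overlapped. In KO the order was CSNK1A1, CTNNB1, AXIN1, TCF7, LEF1, TCF7L2, GSK3B, TCF7L1 and APC. There the ranges of CSNK1A1 and CTNNB1, of AXIN1 and TCF7, and of TCF7 and LEF1 overlapped. TCF7 moved from the sixth to the fourth place, TCF7L2 from the fourth to the sixth, and APC from the eighth to the last. Within the family, LEF1 lay below TCF7L2 in every NT library and above it in every KO library.

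Genes whose level followed the 3 changed members most closely over the 6 libraries were looked for among 8082 or 8083 genes with a mean of at least 5 FPKM. LEF1 was followed by CADPS, B3GNT2 and RGL3 (Pearson r = 0.997, 0.997 and 0.996). TCF7 was followed by MT1F, CRTC2 and KCTD5 (r = 0.991, 0.990 and 0.990), and APC by KIF15, ZBTB1 and STAG1 (r = 0.996, 0.995 and 0.994). Over 6 libraries in 2 groups such values are common: 220 genes exceeded 0.95 with LEF1, 120 with TCF7 and 102 with APC. Of the followers named, CRTC2 (limma, adjusted p = 0.286), KCTD5 (0.0515), KIF15 (0.332) and ZBTB1 (0.0927) did not pass, and the rest did. STAG1, a cohesin subunit, showed the same order as APC, at 10.3, 12.3 and 13.4 FPKM in NT replicates 1, 2 and 3 and 4.55, 8.54 and 5.36 FPKM in KO replicates 1, 2 and 3.

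In each of the 6 lists of other pathway genes that follow, the count is to be held against the 6.26% of all genes tested that passed as higher and the 5.93% that passed as lower. Of 17 listed partners of the destruction complex, 16 were tested, 2 rose, 0 fell and 14 did not pass, a share near the 12.2% of all genes. The median log2 fold change was 0.27 against 0.02 over all genes. AXIN2, the inducible axin and itself a Wnt target, went from 44.1 ± 0.893 to 78.3 ± 7.72 FPKM (mean ± SD, n = 3; log2 fold change 0.81, limma adjusted p = 0.00796). CSNK1E, a casein kinase that acts with dishevelled, went from 38.4 ± 2.17 to 64.6 ± 11.2 FPKM (0.72, adjusted p = 0.0240). Without NT replicate 2 or NT replicate 3, 0 of the list passed, with AXIN2 at adjusted p = 0.0520 and 0.0575 and CSNK1E at 0.123 and 0.115. Over all genes tested 958 and 911 passed in those fits, against 1597 in the main fit. CSNK1E also lost the call without KO replicate 2 (0.0586) and with TPM (0.0763) or quantile (0.0699) scaling. With the GC and length trend removed CSNK1E did not pass either (0.0789).

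None of the 13 genes that mark beta-catenin for breakdown or tune that step passed, with a median of -0.06 (limma; 0 at an unadjusted p under 0.05). At 12.2% of all genes, a list of this length would hold few calls in any case. The lowest p was that of RBX1, the RING subunit of the ligase that tags beta-catenin, at 28.1 ± 9.61 FPKM in NT and 40.6 ± 10.3 FPKM in KO (mean ± SD, n = 3; adjusted p = 0.254, or 0.00816 with the replicate block). Its groups overlapped.

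Of 12 listed coactivators of beta-catenin, 11 were tested, 1 rose, 1 fell and 9 did not pass, with a median of -0.19 (2 rose and 2 fell with a replicate block, where 25.3% of all genes passed). The count is near the 12.2% of all genes. TBL1X, which carries beta-catenin to target genes, stood at 16.9, 16.6 and 17.1 FPKM in NT replicates 1, 2 and 3 and at 8.11, 7.23 and 6.08 FPKM in KO replicates 1, 2 and 3 (log2 fold change -1.14, limma adjusted p = 0.00150). BCL9L, a bridge from beta-catenin to the pygopus proteins, went from 6.78 ± 0.248 to 12.2 ± 3.50 FPKM (0.73, adjusted p = 0.0476). BCL9L lost the call without any single library except KO replicate 3 (adjusted p from 0.0541 to 0.165), and with TPM (0.151), median-ratio (0.0738) and quantile (0.0558) scaling. With the GC and length trend removed BCL9L did not pass either (0.117).

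Corepressors and antagonists of the TCF factors mostly rose where they passed. Of 17 listed, 15 were tested, 6 rose, 0 fell and 9 did not pass, with a median of 0.38, while TPM scaling gave 4 higher and 1 lower, median-ratio scaling 6 and 1, and quantile scaling 5 and 1. Of all genes tested 6.26% passed as higher and 5.93% as lower. TLE4, a Groucho corepressor that TCF factors recruit, stood at 7.33, 3.35 and 3.25 FPKM in NT replicates 1, 2 and 3 and at 23.6, 23.8 and 19.0 FPKM in KO replicates 1, 2 and 3 (log2 fold change 2.10, limma adjusted p = 0.000767). NT replicate 1 was the highest control, yet far below every KO library. Its paralog TLE1 went from 4.14 ± 0.257 to 11.2 ± 1.34 FPKM (1.25, adjusted p = 0.00100), and the histone demethylase KDM1A from 18.8 ± 2.32 to 39.5 ± 1.20 FPKM (1.04, adjusted p = 0.00227). NLK, a kinase that phosphorylates TCF factors, went from 4.72 ± 1.51 to 9.23 ± 1.54 FPKM (0.86, adjusted p = 0.0316). NLK lost the call without NT replicate 2 (0.141), NT replicate 3 (0.130), KO replicate 2 (0.114) or KO replicate 3 (0.0585), and with TPM scaling (0.0902). Without NT replicate 2 or NT replicate 3, 3 of the list passed, where 958 and 911 of all genes did, against 1597 in the main fit.

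Of 8 genes of the cadherin and catenin complex, which holds beta-catenin at cell junctions, 6 were tested, 0 rose, 1 fell and 5 did not pass, with a median of -0.19 (2 fell with a replicate block). These counts are near the 12.2% of all genes, or 25.3% with the block. The member that fell, CDH17, is an intestinal cadherin without the beta-catenin binding tail of classical cadherins. It stood at 68.9, 53.9 and 49.0 FPKM in NT replicates 1, 2 and 3 and at 11.1, 3.25 and 2.95 FPKM in KO replicates 1, 2 and 3 (log2 fold change -3.29, limma adjusted p = 0.000524). CDH1, a classical cadherin that does bind beta-catenin, named here for that role after its values were seen, stood at 32.6 FPKM in NT and 40.3 FPKM in KO and did not pass (adjusted p = 0.629).

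Among 20 known Wnt target genes, TCF7 and LEF1 included, 11 rose, 1 fell and 8 did not pass, with a median of 0.82, against 6.26% higher and 5.93% lower over all genes tested. The count past the threshold fell from 12 to 8 without NT replicate 2 or NT replicate 3, and to 6 with each gene's own spread. Over all genes tested the count fell too, from 1597 to 958, 911 and 715 in these 3 settings. NKD2, an inhibitor of dishevelled, stood at 22.97, 17.8 and 16.7 FPKM in NT replicates 1, 2 and 3 and at 61.6, 65.8 and 83.2 FPKM in KO replicates 1, 2 and 3. The crypt stem cell receptor LGR5 was the 1 that fell, from 50.7 ± 7.81 to 14.4 ± 3.20 FPKM (mean ± SD, n = 3). Its log2 fold change was -1.75 (limma, adjusted p = 0.000477), and LGR5 kept the call in every alternative setting. APCDD1, a Wnt inhibitor at the cell surface, rose as well (log2 fold change 2.67, limma adjusted p = 0.00373). TNFRSF19 passed narrowly (1.85, adjusted p = 0.0310) and lost the call without any single library except NT replicate 1 (adjusted p from 0.0658 to 0.149), and with TPM scaling (0.0538). Both were higher in NT replicate 1 than in the other controls.

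**Figure D5:**
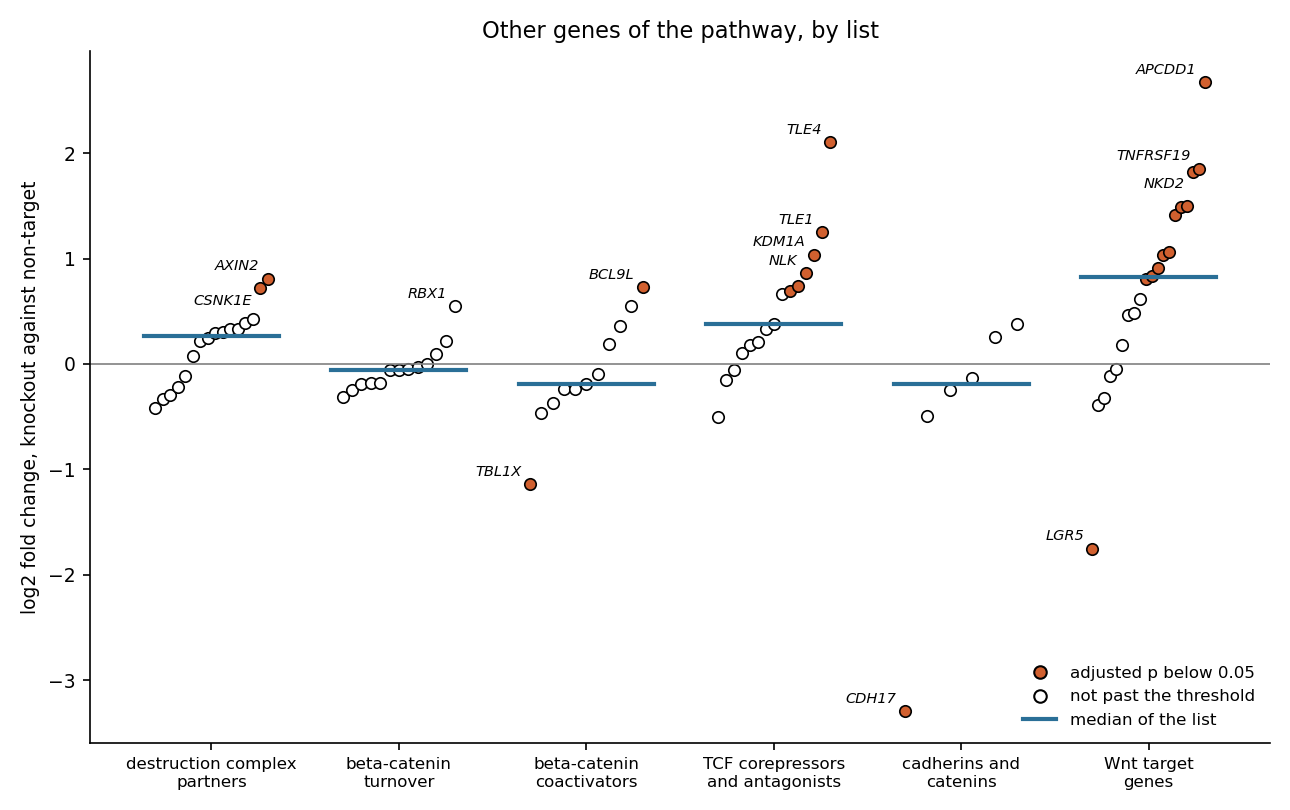
Log2 fold change, knockout against non-target, of every tested gene in the 6 lists, in order of value within a list. Filled points passed at an adjusted p below 0.05, and blue lines are list medians, from -0.19 (coactivators, cadherins and catenins) to 0.82 (Wnt target genes).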

How the data were processed

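Poly-A RNA was sequenced from 6 libraries, 3 NT and 3 KO. The values are FPKM as the authors deposited them, 1 per gene symbol, on hg19 with TopHat2 2.1.1 and STAR 2.7.10b per the submitters' processing notes. The counting program and its strand setting are not given in the sources used here. A symbol not listed in a library was set to 0. Genes that reached 1 FPKM in 3 or more libraries were tested on log2(FPKM + 1) with limma 3.58.1 (trend and robust options) in R 4.3.3. Benjamini-Hochberg adjustment ran over all 13092 genes, with a threshold of 0.05. In 5 simulated data sets with 200 changed genes, the method recovered 78.8% of 2-fold and 99.8% of 4-fold changes. Of the calls made there, 7.08% were of unchanged genes. Same-numbered libraries deviated together (r = 0.547, 0.309 and 0.331), so a fit with the replicate number as a block was added. The main fit has no block, and results are from it unless the block is named. NT replicate 2 with KO replicate 3 (0.32) and NT replicate 3 with KO replicate 2 (0.321) did so as closely, so the data set replicate 1 apart rather than each number. Starts and gene lengths came from GENCODE release 44 on GRCh37, which matched 89.0% of symbols, and length and GC were known for 93.9% of genes tested.

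The members and gene lists were chosen with earlier results of these data known. Named beyond the members were SHARPIN, up to 4 genes per list that passed with the greatest change (where none passed, that of lowest p), the 3 genes most like each of 3 members, and genes that overlap members. The cell type markers named and CDH1 lie outside that rule and were chosen after their values were seen. FPKM carry no counts, so no count test was made. Alternatives changed the pseudocount, the filter, the scaling, the variance model, the block and the libraries used. Leaving out both replicate 1 libraries, using each gene's own spread, and removing the GC and length trend were chosen after seeing the data. The promoter window of 1 member is not reported here.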

Additional observations from a re-analysis of the deposited data

How the results depend on the processing

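The 1597 genes past the threshold (820 higher, 777 lower) became 865 with a mean of at least 5 FPKM (519 higher, 346 lower), where fewer genes were tested. Array weights gave 5269 (3202 and 2067). Counting NT replicates 2 and 3 as 1 sample gave 944 (416 and 528), and each gene's own spread gave 715 (286 and 429). The balance also turned to lower with no filter (707 and 1066), where more genes were tested. It did so with TPM scaling (605 and 766), median-ratio scaling (766 and 831) and the GC and length trend removed (626 and 742). The same held without NT replicate 2 (420 and 538), NT replicate 3 (411 and 500), KO replicate 2 (505 and 623) or KO replicate 3 (616 and 619). It did not hold without NT replicate 1 (760 and 609) or KO replicate 1 (1041 and 929). Of the 9 members 3 passed, against 1 with no filter, 6 with array weights, 1 with NT replicates 2 and 3 counted as 1 sample and 1 with each gene's own spread. Of the genes in the 6 lists, members aside, 20 passed, against 43 with array weights, 12 with NT replicates 2 and 3 counted as 1 sample and 12 with each gene's own spread. Leaving out 1 library at a time gave 911 to 1970 genes, 1 to 3 members and 12 to 19 list genes, lowest for all genes without NT replicate 3. With the replicate block, on the pairing by number, 3309 genes, 3 members and 29 list genes passed. The sign turned for CTNNB1 with quantile scaling (-0.036). It turned for TCF7L2 with NT replicates 2 and 3 counted as 1 sample (0.039), with the GC and length trend removed (0.043), and without NT replicate 2, NT replicate 3 or KO replicate 3 (-0.099 to 0.108 over the 6 libraries left out). It turned for SHARPIN without KO replicate 1 (-0.406 to 0.172 over the libraries left out) and without both replicate 1 libraries (0.12). None of these 3 genes passed the main test. The cause was not tested in any of these cases. TPM scaling moved the median of all genes by -0.08 on the log2 scale. Library depth is only a rough estimate, so counting error for APC and TCF7L1, the lowest members, is not known.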
